A study of Arabidopsis thaliana with 4 samples.

Results

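A set of 10 loci of epidermal hair patterning was followed in Arabidopsis thaliana seedlings under osmotic stress, out of 25356 genes with a probe on the arrays. They were chosen by name, with earlier results of these data known. RHD6 (AT1G66470) and RSL4 (AT1G27740) are regulators of root hairs, and COBL9 (AT5G49270), EXPA7 (AT1G12560), EXPA18 (AT1G62980) and PRP3 (AT3G62680) are proteins of the hair wall. WER (AT5G14750), GL1 (AT3G27920), GL2 (AT1G79840) and CPC (AT2G46410) belong to the patterning circuit that roots and leaves share. All 10 loci were found, with 11 probes between them. The RefSeq table names COBL9 as SHV2, GL1 as MYB0 and WER as MYB66.

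Total RNA of whole seedlings was hybridised to 4 one-colour Agilent arrays, 2 labelled WT and 2 labelled ced2. The wild type carries luciferase behind the NCED3 promoter, and ced2 is labelled as a mutant with no lesion named. Both groups are of the ecotype gl1-Col0, so the controls carry gl1 as well, and the gl1 allele is not named. Plants were 14 d old, and every sample had spent 6 h in a 40% solution of polyethylene glycol (PEG), which draws water out of tissue. There was no unstressed group, so each difference below is between genotypes after PEG. Each RNA came from 20 pooled plants, and the 2 replicates of a genotype are called biological in the labels.

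The deposited genotype labels contradict each other. Each array's scanner file is matched in the authors' value table by a column of the other genotype (r = 0.999999 across probes after centring), against r between -0.573 and -0.369 for the column of its own sample. Directions below follow the scanner files, called WT files and ced2 files, and every sign turns if the table's labels are followed. VSR1, a vacuolar sorting receptor, was lower in the ced2 files, with a log2 difference of -3.67, and so was NCED3, with -1.33 (limma adjusted p = 0.00016 and 0.000161).

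Root hairs arise from epidermal cells in a position-dependent pattern. In cells of the non-hair position, the MYB factor WER forms a complex with the basic helix-loop-helix (bHLH) factors GL3 and EGL3 and the WD40 protein TTG1, and this complex turns on GL2, which represses hair genes. CPC, a small MYB protein without an activation domain, is made in these cells, moves to the neighbouring hair cells and competes for the bHLH partners. There RHD6 and then RSL4 drive hair initiation and elongation. In leaves GL1 takes the place of WER, and the same complex with GL2 promotes trichomes, so GL2 marks non-hair cells of the root and trichomes of the shoot.

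Levels are given as the log2 of a probe's processed signal relative to the 75th percentile of its array, and a difference is ced2 files minus WT files. The 75th percentile was 3342 and 2807 on the WT arrays and 3724 and 4465 on the ced2 arrays, in the order of replicates 1 and 2. A single slide and a single scan held the 4 arrays, with WT at positions 1 and 2 and ced2 at 4 and 3, and position cannot be told apart from genotype. Replicates were close: the median absolute gap was 0.0449 within WT and 0.033 within ced2. No spot was saturated. The probe that represents each of the 10 genes was well above background on all 4 arrays, so none of them passed the filter through 1 group alone.

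Of the 10 genes, 7 were higher in the ced2 files, 2 were lower and 1 did not pass an adjusted p of 0.05 (limma, Benjamini-Hochberg over 20835 genes). Among all genes tested, 77.9% passed, 42.4% as higher and 35.6% as lower, so a count of 9 in 10 is read against a background in which most genes passed. At a minimum of 2-fold, 6 of the 10 passed, 4 higher and 2 lower, against 11.3% of all genes (8.01% higher and 3.32% lower). That count was 3 with normexp (COBL9, GL1 and GL2) and 3 with local background subtraction (COBL9, EXPA18 and GL2). These 2 ways of correcting the background are described below. Over all 20835 genes tested, the count at 2-fold was 2360, or 2522 with normexp and 1278 with local background subtraction. The 2 groups of arrays did not overlap for 9 of the 10 genes, which was also so for 90.2% of all genes.

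**Figure D1:**
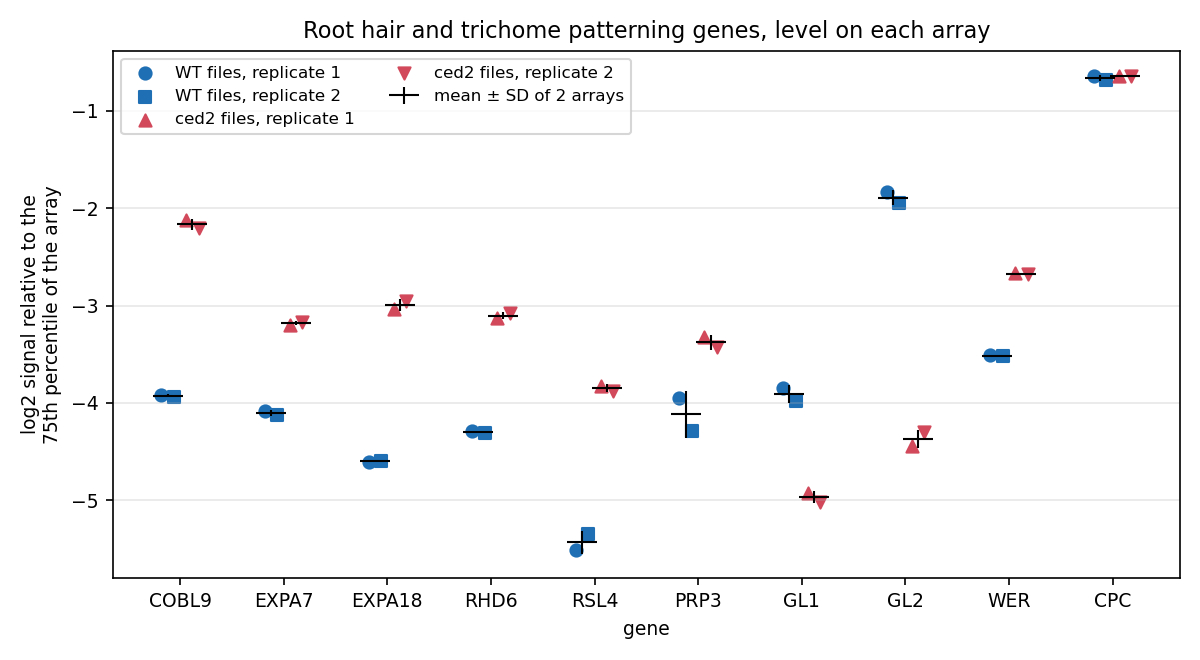
Level of each of the 10 genes on each of the 4 arrays (vertical axis: log2 signal relative to the 75th percentile of the array; blue: WT files, red: ced2 files; black: mean ± SD of 2 arrays). Levels of different genes come from different probes and are not comparable; within a gene, red and blue points are apart for every gene except CPC, with red below blue for GL1 and GL2.

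The 6 root hair genes were all higher in the ced2 files. RHD6, which starts hair outgrowth, lay at -4.29 and -4.31 on the WT arrays and at -3.13 and -3.08 on the ced2 arrays. Both ced2 arrays were above both WT arrays, by a difference of 1.20 (SE 0.0282, 95% interval 1.11 to 1.28, 2.29-fold, limma adjusted p = 0.000189). RSL4, the factor that sets how long a hair grows, was at -5.52 and -5.35 in the WT files and at -3.82 and -3.88 in the ced2 files. The groups stood apart by 1.58 (SE 0.0707, 2.99-fold, limma adjusted p = 0.000398), with a wider gap between the WT replicates (0.169) than for RHD6 (0.0157).

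The wider family of hair bHLH factors was listed with 9 genes, of which 8 were tested, 6 were higher, 1 was lower and 1 did not pass. The median difference was 0.81, or 0.63 for the 6 tested genes that are not among the 10, against 0.05 for all genes tested. With 75th percentile scaling, counts of this list and of those below stand beside 42.4% higher and 35.6% lower over all genes tested. With normexp the median over the 8 was 0.033, with 2 higher, 3 lower and 3 not past. Local background subtraction gave a median of 0.40, with 5 higher, 0 lower and 3 not past. Over all 20835 genes tested, normexp gave 5696 higher and 9937 lower, with a median of -0.14. Local background subtraction gave 7550 higher and 7272 lower over all genes, with a median of -0.0029, against 8831 and 7408 with 75th percentile scaling. RSL1, which acts beside RHD6 in hair initiation, was higher by 1.49, from -7.44 and -7.49 to -5.88 and -6.08 (limma adjusted p = 0.00057). RSL2, which like RSL4 acts in hair elongation, was higher by 0.59 (limma adjusted p = 0.00096), or 0.36 with quantile normalization and 0.29 with local background subtraction. With normexp RSL1 and RSL2 passed as lower, at -0.77 and -0.35, and RSL1 did not pass with local background subtraction (0.31). Of the related LRL factors, which also act in hair growth, LRL2 and LRL3 were higher by 0.94 and 0.68, while LRL1 differed by -0.09 (limma adjusted p = 0.000600, 0.00783 and 0.0391). The call of LRL1 was lost in all of quantile normalization, normexp, local background subtraction, no filter on dim probes, the replicate block and each fit without 1 array, and that of LRL3 with normexp (0.12, limma adjusted p = 0.305), where LRL2 was at 0.24. LRL3 was at 0.44 with quantile normalization. AT5G43175 differed by -0.22 (limma adjusted p = 0.718) and its WT arrays lay apart, at -6.10 and -4.77. Without WT replicate 1 it was lower at -0.88 (limma adjusted p = 0.0035) and without WT replicate 2 higher at 0.45 (limma adjusted p = 0.00509), and with normexp it was lower at -1.14 (limma adjusted p = 0.0154). The probe of AT2G14760 was not well above background on any array.

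COBL9, a membrane-anchored COBRA-like protein needed for hair growth, had the largest positive difference of the 10 genes. In processed signal COBL9 read 222 and 183 in the WT files and 854 and 966 in the ced2 files, and its level moved from -3.91 and -3.94 to -2.12 and -2.21. No WT value came near a ced2 value, and the difference was 1.76 (SE 0.0392, 95% interval 1.64 to 1.88, 3.39-fold, limma adjusted p = 0.000186). Only 3.28% of all genes tested had a larger absolute difference.

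EXPA7 and EXPA18 are related expansins, proteins that loosen the wall, and both are made in root hair cells. EXPA18 was at -4.61 and -4.59 in the WT files and at -3.04 and -2.95 in the ced2 files, higher by 1.61 (SE 0.0401, 3.04-fold, limma adjusted p = 0.000192). EXPA7 lay at -4.08 and -4.13 in the WT files and at -3.20 and -3.17 in the ced2 files, higher by 0.92 (SE 0.0296, 1.90-fold, limma adjusted p = 0.000245). The groups did not overlap for either gene. Their 95% intervals, 1.49 to 1.72 for EXPA18 and 0.84 to 1.01 for EXPA7, did not overlap either; the difference between the expansins was not tested, and probes of related genes may share hybridization.

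PRP3, a proline-rich protein of the hair wall, is the one gene of the 10 with a second probe. The brighter probe lay at -3.95 and -4.29 in the WT files and at -3.33 and -3.43 in the ced2 files, a difference of 0.74 (SE 0.135, 1.67-fold, limma adjusted p = 0.0121). The groups did not overlap, but the gap between the WT replicates, 0.336, was the widest among the 10 genes. The dimmer probe lay at -6.61 and -5.76 in the WT files and at -8.80 and -6.27 in the ced2 files, where it was not well above background on replicate 1. Its groups overlapped, and it differed by -1.35 (95% interval -4.49 to 1.79, limma adjusted p = 0.311 over all probes). With both probes averaged, PRP3 differed by -0.31 (limma adjusted p = 0.595), and without ced2 replicate 1 its call was lost (0.69, limma adjusted p = 0.0542).

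**Figure D2:**
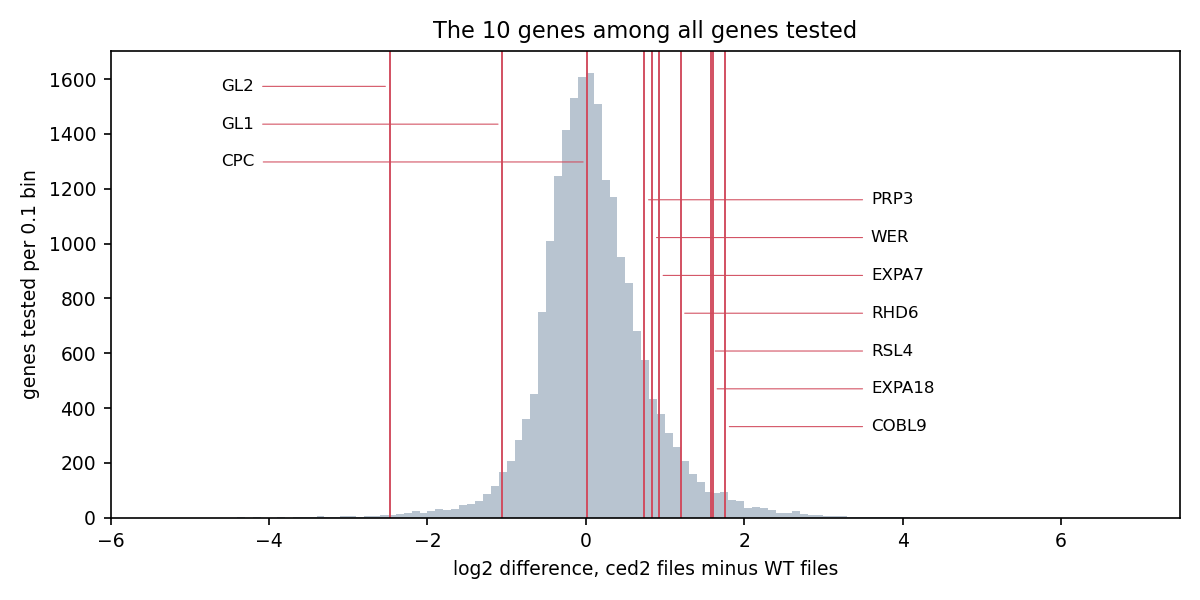
Histogram of the log2 difference (ced2 files minus WT files) over the 20835 genes tested, in bins of 0.1, with the 10 genes drawn as red lines. COBL9, EXPA18 and RSL4 lie in the right tail, GL2 lies far in the left tail at -2.48, and CPC sits at the centre at 0.02.

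The list of root hair growth genes, which holds these 4 wall genes and others for tip growth, had 29 tested genes. Of these, 26 were higher, 1 was lower and 2 did not pass, with a median of 0.74. Without the 4 wall genes it was 22 higher, 1 lower and 2 not past of 25, with a median of 0.67. PRP1, a proline-rich wall protein related to PRP3, was higher by 1.68 (limma adjusted p = 0.00016), from -6.20 and -6.23 to -4.54 and -4.54. XTH12, an enzyme that cuts and rejoins xyloglucan, was higher by 1.61 (limma adjusted p = 0.00746), with its ced2 arrays apart at -5.04 and -5.68. Its neighbour and close relative XTH13 differed by 0.09 (limma adjusted p = 0.904) with overlapping groups, and such similar probes may not separate the genes. The lower gene was SCN1, a RhoGDI that keeps hair initiation to a single site per cell, at -0.42 (limma adjusted p = 0.000504).

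The sizes of these differences depended on the background correction. With normexp, RSL4 differed by 0.14 and PRP3 by 0.07, neither past the threshold (limma adjusted p = 0.3 and 0.403). COBL9, EXPA18, RHD6 and EXPA7 stayed higher with normexp, by 1.103, 0.63, 0.40 and 0.28, while RSL1 and RSL2 passed as lower (-0.77 and -0.35, limma adjusted p = 0.0117 and 0.0289). The signs of XTH12 and PRP1 also turned (-0.51 and -0.08), with neither past the threshold (limma adjusted p = 0.0956 and 0.542), and the median of the hair growth list was 0.35. That correction left the dimmest probes of the WT arrays on a higher floor: the first percentile of corrected intensity was 143 and 158 in the WT files and 55.5 and 55.9 in the ced2 files, and the median difference of all genes moved from 0.05 to -0.14. The split of all called genes moved with it, from 8831 higher and 7408 lower to 5696 higher and 9937 lower. With plain local background subtraction and the same offset of 50 on each array, that percentile was 59.5 to 61.5. All 6 hair genes were then higher and past the threshold. COBL9 was at 1.48, EXPA18 at 1.18, RSL4 at 0.90, RHD6 at 0.87, EXPA7 at 0.67 and PRP3 at 0.54. PRP1 was at 0.81, and RSL1 and XTH12 were not past (0.31 and 0.49, limma adjusted p = 0.0704 and 0.0777). An offset of 50 was also used with normexp. Adding it before the log2 shrinks the differences of dim probes, and its part in these values was not tested.

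**Figure D3:**
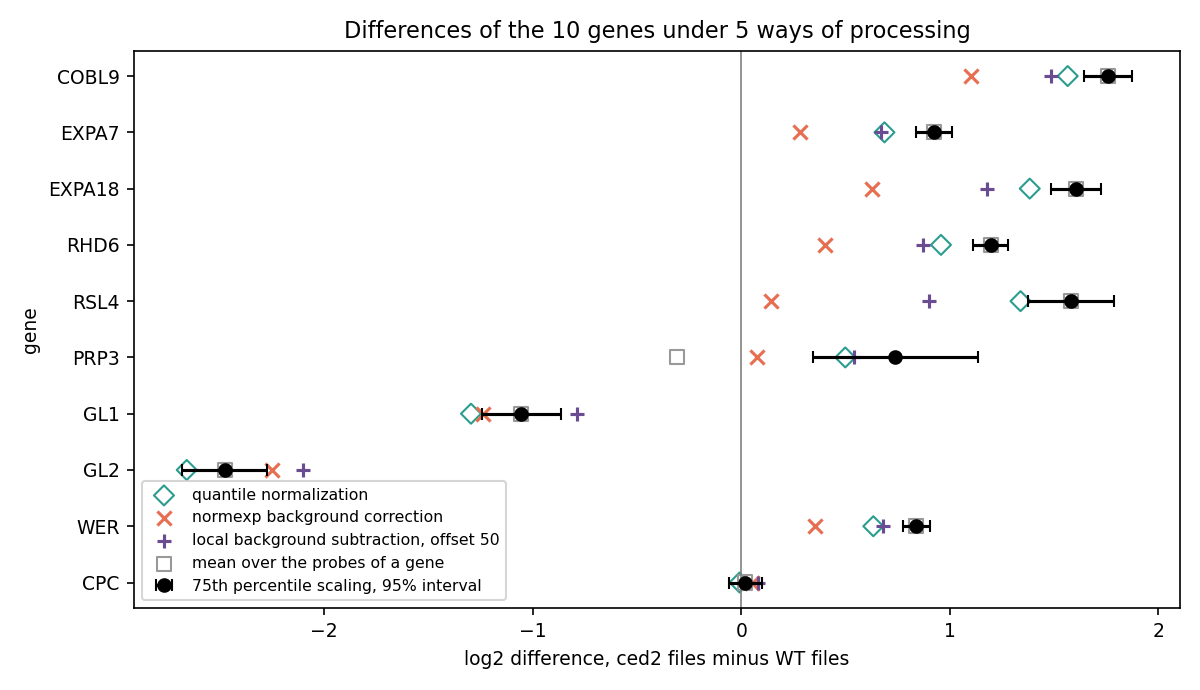
Log2 difference of each of the 10 genes (horizontal axis, ced2 files minus WT files) with 75th percentile scaling and its 95% interval (black) and under 4 other ways of processing. GL1 and GL2 lie left of 0 in all 5 and the hair genes other than PRP3 right of 0, the averaged probes of PRP3 lie left of 0, and normexp lies nearest to 0 for the 6 hair genes.

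GL2, the homeodomain factor that acts below the MYB and bHLH complex, moved most of the 10 genes. In processed signal GL2 read 936 and 727 in the WT files against 172 and 226 in the ced2 files. The level fell from -1.84 and -1.95 to -4.44 and -4.30, with both ced2 arrays far below both WT arrays. The difference was -2.48 (SE 0.0696, 95% interval -2.68 to -2.27, 5.57-fold lower, limma adjusted p = 0.000215). It was the 74th lowest of the 20835 genes tested, and 0.998% of genes had a larger absolute difference.

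WER, the MYB factor that stands above GL2 in the root, went the other way. It lay at -3.51 and -3.52 in the WT files and at -2.67 and -2.68 in the ced2 files, the closest WT replicates of the 10 genes. The groups stood apart by 0.84 (SE 0.0216, 95% interval 0.78 to 0.90, 1.79-fold, limma adjusted p = 0.0002). With normexp the difference was 0.36 (limma adjusted p = 0.00437).

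GL1, the trichome MYB factor, lay at -3.85 and -3.98 in the WT files and at -4.92 and -5.01 in the ced2 files. Its signal was well above background on all 4 arrays although both groups carry gl1, with a processed signal of 232 and 178 in the WT files and 123 and 138 in the ced2 files, against a median of 2.64 to 6.02 for the 153 negative control spots. GL1 was lower in the ced2 files, with a difference of -1.06 (SE 0.0645, 95% interval -1.25 to -0.87, 2.08-fold, limma adjusted p = 0.000719). Both the lower level of GL1 and that of GL2 passed under quantile normalization (-1.30 and -2.66), normexp (-1.24 and -2.25) and local background subtraction (-0.79 and -2.10).

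The list of 10 patterning activators split evenly, with 5 higher, 5 lower and 0 not past. Over all genes tested, 42.4% were higher and 35.6% lower. The list median of 0.27 turned to -0.42 with normexp and -0.17 for probes well above background on all arrays. With local background subtraction it was 0.013. MYB23, a relative of GL1 and WER that acts in trichomes and non-hair cells, was lower, with a difference of -2.59 (limma adjusted p = 0.000168), from -1.13 and -1.01 to -3.66 and -3.65, beside -2.48 for GL2. The bHLH partners went up: EGL3 by 1.06, MYC1 by 0.72 and GL3 by 1.45 (limma adjusted p = 0.000593, 0.000318 and 0.0116). GL3 was not well above background on WT replicate 1, it passed as lower with normexp (-0.88, limma adjusted p = 0.00858), and its call was lost without ced2 replicate 1 (limma adjusted p = 0.0516) and with local background subtraction (0.25, limma adjusted p = 0.152). EGL3 did not pass with normexp (0.0098, limma adjusted p = 0.918) and was at 0.64 with local background subtraction, and MYC1 was at 0.46 with normexp. SCM, the receptor-like kinase that passes positional cues to the root epidermis, was higher by 0.96 (limma adjusted p = 0.00028), or 0.61 with normexp. TTG1, the WD40 scaffold, was lower at -0.17 and TTG2, a WRKY factor below the complex, at -0.27 (limma adjusted p = 0.0165 and 0.00506). TTG2 was at -0.53 with quantile normalization and -0.64 with normexp. The call of TTG1 was lost with normexp and without WT replicate 1 or ced2 replicate 2 (limma adjusted p = 0.0749, 0.0608 and 0.0813).

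CPC was the gene of the 10 that did not pass. It lay at -0.64 and -0.68 in the WT files and at -0.64 and -0.64 in the ced2 files, and the groups overlapped. The difference was 0.02 (SE 0.0269, limma adjusted p = 0.553), with a 95% interval of -0.06 to 0.10. Quantile normalization gave -0.0084, and leaving out WT replicate 2 gave -0.0032. Of all genes tested, 97% had a larger absolute difference.

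The other small MYB inhibitors of the CPC family passed in both directions, as did all genes tested (42.4% higher and 35.6% lower). Of the 7 in the list, 4 were higher, 2 were lower and 1, CPC, did not pass, with a median of 0.15 that turned to -0.0084 with quantile normalization and -0.48 with normexp, and was 0.079 with local background subtraction. TCL1 was higher by 1.19, TRY by 0.70 and TCL2 by 0.45 (limma adjusted p = 0.000279, 0.000468 and 0.000463). These act mainly on trichome number and spacing. CPL3 was lower at -1.03 and ETC1 at -0.38 (limma adjusted p = 0.0002 and 0.0014), and ETC1 was at -0.61 with quantile normalization and -0.63 with normexp. ETC2 differed by 0.15 (limma adjusted p = 0.0352), a sign that turned with quantile normalization (-0.05), normexp (-0.91) and local background subtraction (-0.14), and its call was lost with no filter on dim probes, the replicate block and without WT replicate 1 or either ced2 replicate. With normexp TCL1 passed as lower (-0.48, limma adjusted p = 0.0181), TCL2 did not pass (0.14, limma adjusted p = 0.0768) and TRY was at 0.23. TCL1 was at 0.41 with local background subtraction, and TCL2 at 0.25 with quantile normalization. TCL1, TCL2 and ETC2 are neighbours of similar sequence, and their probes may not separate them.

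In the trichome list of 19 genes, 18 were tested, 13 were lower, 2 were higher and 3 did not pass, with a median of -0.24, or -0.38 with normexp. Without GL1 and GL2 it was 11 lower, 2 higher and 3 not past of 16, with a median of -0.20. Both groups carry gl1, so these are RNA levels in that background, and the presence of trichomes was not tested. After MYB23 and GL2, the lowest was MYB5, a MYB factor of trichomes and seed coat, at -1.71 (limma adjusted p = 0.0283). The ced2 arrays of MYB5 lay apart, at -6.57 and -5.44, and its call was lost without WT replicate 1 or 2 (limma adjusted p = 0.115 and 0.109) and with no filter on dim probes (limma adjusted p = 0.0604). KAK, a ubiquitin ligase that limits branching, and MYB106, a MYB factor of the epidermis, were chosen after their values were seen. They were lower, at -1.06 and -1.11 (limma adjusted p = 0.000177 and 0.00581). The 2 higher genes were TRY and STI, which promotes trichome branching, at 0.70 for both (limma adjusted p = 0.000468 and 0.000343). STI did not pass with normexp (0.02, limma adjusted p = 0.861) and was at 0.44 with quantile normalization.

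**Figure D4:**
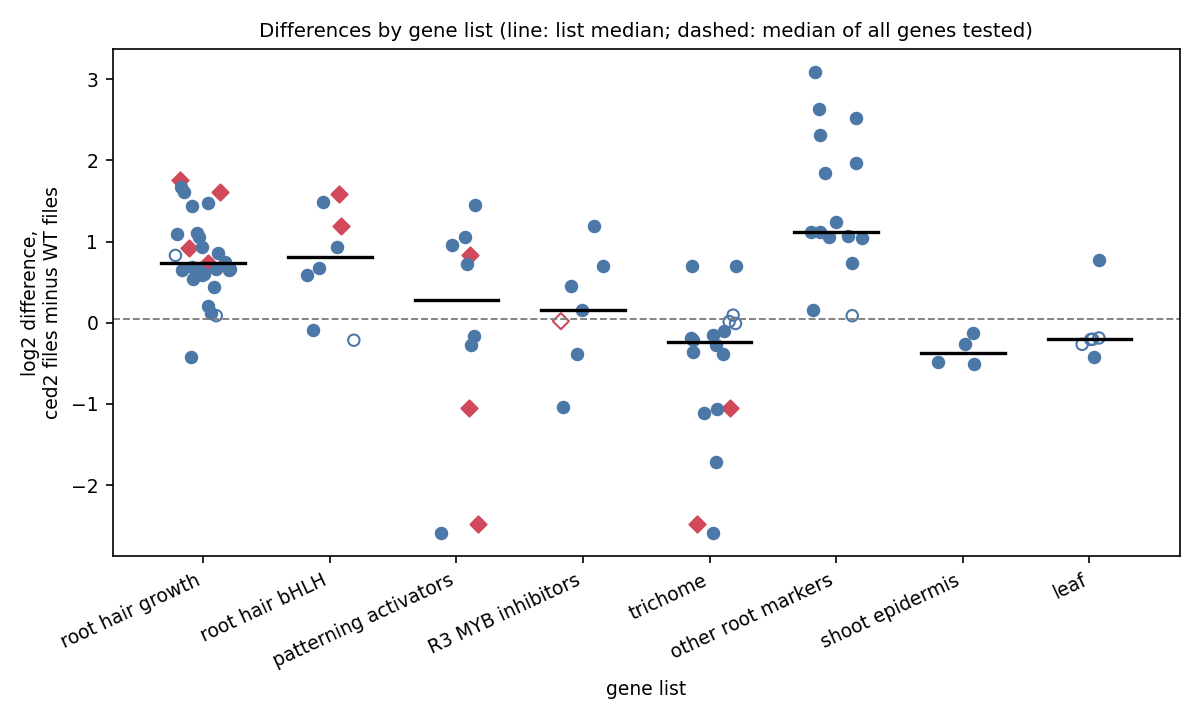
Log2 difference (vertical axis, ced2 files minus WT files) of each tested gene by list (red diamonds: the 10 genes; blue circles: others; filled: past an adjusted p of 0.05). The medians are 0.74 for root hair growth, -0.24 for trichome and 1.12 for other root markers, and GL2 and MYB23 lie lowest.

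Markers of other root cells moved in the same direction as the hair genes. The list includes markers of the endodermis, stem cell niche and root cap. Of 15 tested, 14 were higher, 0 were lower and 1, SCR, did not pass, with a median difference of 1.12, or 0.46 with normexp and 0.66 with local background subtraction. The 16 markers on the array had a summed level, relative to the 75th percentile, of 1.43 and 1.46 in the WT files and 4.18 and 4.12 in the ced2 files, and none was dim on all 4 arrays. CASP4 and CASP1, membrane proteins of the endodermal Casparian strip, were higher by 3.08 and 2.63 (limma adjusted p = 0.000191 and 0.00016). The smallest differences of the 15 were 0.09 for SCR and 0.16 for WOX5, a marker of the stem cell niche. CASP4 was at 0.83 with normexp and 1.75 with local background subtraction, where CASP1 was at 2.33 and 2.49. With that median taken off, COBL9, EXPA18, RSL4 and RHD6 were at 0.64, 0.49, 0.47 and 0.08 on the log2 scale. On the same footing EXPA7, WER and PRP3 were at -0.19, -0.28 and -0.38, CPC at -1.097, GL1 at -2.17 and GL2 at -3.59, with no test. With normexp, RSL4 (0.14), RHD6 (0.40), EXPA7 (0.28) and PRP3 (0.07) lay below the other root median of 0.46. COBL9 (1.103) and EXPA18 (0.63) lay above it. With local background subtraction RHD6, RSL4, EXPA18 and COBL9, at 0.87 to 1.48, lay above the median of 0.66. EXPA7, at 0.67, was level with that median, and PRP3, at 0.54, lay below it. In RNA of whole seedlings, fewer cells of a type and less RNA per cell cannot be told apart, and the part of root RNA in these differences was not tested.

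All 4 genes of the shoot epidermis list were lower, with a median of -0.37. The call of PDF2 (-0.12, limma adjusted p = 0.037), a homeodomain factor of the shoot epidermis, was the weakest of them, and 3 of the 4 passed with quantile normalization, normexp, no filter on dim probes, averaged probes, the replicate block and without WT replicate 1 or either ced2 replicate. Their summed level was 16.4 on both WT arrays and 12.3 and 12.5 on the ced2 arrays. Of 6 leaf genes, LHCB2.1 was higher by 0.77, LHCB1.3 was lower at -0.43 (limma adjusted p = 0.00112 and 0.0419) and 4 did not pass. With probes averaged LHCB2.1 was at 0.30 and LHCB1.3 at -0.28. The call of LHCB1.3 was lost with quantile normalization (-0.03), normexp, no filter on dim probes, the replicate block and without 3 of the arrays in turn (WT replicates 1 and 2 and ced2 replicate 2). The leaf list had a median of -0.21, which turned to 0.10 with quantile normalization and 0.0052 with averaged probes, and was -0.13 without WT replicate 2 or without ced2 replicate 2. Its summed level was 469 and 532 in the WT files and 442 and 383 in the ced2 files. The part of these shoot markers in the lower levels of GL1, GL2 and MYB23 was not tested.

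Outside the lists, the genes whose pattern lay nearest to that of COBL9 were AT5G60520, AT4G35160 and AT3G01513. Likeness was the Euclidean distance between log2 levels centred on each gene over the 4 arrays. Their differences were 1.76, 1.77 and 1.79, against 1.76 for COBL9. Over 4 arrays this describes a shared size and direction alone, and for AT3G01513 the sign turned with normexp (-0.02), and the value was 0.85 with local background subtraction.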

How the data were processed

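Per the labels, 0.3 µg of RNA was labelled with Cy3. The submitters' processing notes name Agilent Feature Extraction 10.7.1.1. Each deposited scanner file holds, per the file headers, 1 processed intensity per spot (background-subtracted, linear), its median intensity and local background, and flags. These intensities were not normalized between arrays. The authors' deposited value table holds log2 values whose scaling is not stated. They matched the log2 processed signal minus the 75th percentile, centred on each probe's median, under the other genotype's label, with column medians of 0.08 and -0.03 for WT and 0.01 and -0.03 for ced2.

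Control and outlier spots were left out, log2 values of a probe's spots were averaged, and 70 of 43603 probes were dropped. Accessions were matched to a RefSeq table of TAIR10.1, used for names alone: 34236 probes had a gene. The brightest probe stood for each of 25356 genes. Genes whose probe the scanner called well above background in both replicates of WT or of ced2 were kept, which left 20835 for limma 3.58.1 (R 4.3.3, lmFit and eBayes, two-sided). Residual degrees of freedom were 2, with 1.49 from the prior. The number of arrays limits precision. The fit was tested on simulated data.

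The 10 genes and the lists (96 loci, 95 on the array) were chosen with earlier results of these data known. The genes named are the 10, all measured patterning activators, CPC relatives and hair bHLH factors, the 3 highest and 3 lowest called genes of the other lists that do not overlap between groups, 3 genes near COBL9, and VSR1 and NCED3. One gene that this rule names is not reported here. XTH13, SCR, WOX5, PDF2, KAK and MYB106 fall outside this rule and were chosen after their values were seen. Lists are described by counts and medians. Alternatives were quantile normalization, normexp, filters on dim probes, averaged probes, a replicate block, an intensity trend, the value table and leaving out each array. Local background subtraction was added after the normexp values were seen.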

Additional observations from a re-analysis of the deposited data

How the results depend on the processing

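Of 703 values recomputed for 62 results under 13 settings, 590 kept their direction and side of the threshold, or stayed within the spread allowed. For the 10 genes this was 114 of 130. The filters on dim probes, the replicate block and the intensity trend leave a gene's log2 difference unchanged, so its direction could not turn there. The same holds for averaged probes where a gene has a single probe. The count of genes past the threshold was 16239, and 15687 with the replicate block, whose fit has 1 residual degree of freedom; it ranged from 14142 without ced2 replicate 1 to 16638 with an intensity trend. The labels do not say that replicate numbers pair the samples, and the deviations of same-numbered arrays correlated at 0.0473 across genes. A slide block could not be fitted, since the 4 arrays share a slide. Precision is limited by 2 arrays a group, and the dim probes by the background correction; causes were not tested.

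With the authors' value table under its own labels, every sign of the 10 genes turned: COBL9 -1.76, EXPA7 -0.92, EXPA18 -1.60, RHD6 -1.19, RSL4 -1.58, PRP3 -0.74, GL1 1.06, GL2 2.48, WER -0.84 and CPC -0.018. With normexp, RSL4 was 0.14 and PRP3 0.075, neither past the threshold, and signs turned for AT3G01513 (-0.023), ETC2 (-0.91), GL3 (-0.88), PRP1 (-0.081), RSL1 (-0.77), RSL2 (-0.35), TCL1 (-0.48) and XTH12 (-0.51). With probes averaged, PRP3 was -0.31 and AT5G43175 0.039. With quantile normalization CPC was -0.0084 and ETC2 -0.052, and with local background subtraction ETC2 was -0.14 and 1278 genes, not 2360, reached 2-fold. Leaving out each array in turn gave -0.0032 to 0.041 for CPC, 0.57 to 0.91 for PRP3 and -0.88 to 0.45 for AT5G43175.

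List medians moved as follows. Quantile normalization gave 0.57 for hair bHLH factors, 0.60 for hair growth, 0.95 for other root markers, 0.22 for patterning activators, -0.0084 for the CPC family, -0.32 for shoot epidermis, -0.35 for trichome and 0.10 for leaf. Normexp gave 0.033, 0.35, 0.46, -0.42, -0.48, -0.36 and -0.38 for the first 7 of these in the same order. Local background subtraction gave 0.40, 0.57, 0.66, 0.013, 0.079 and -0.39 for the first 6. Averaged probes gave 0.66 for hair growth, -0.51 for shoot epidermis, -0.31 for trichome and 0.0052 for leaf, and the filter on all arrays gave -0.17 for patterning activators. Leaving out each array gave 0.69 to 0.79 for hair growth, 1.08 to 1.17 for other root markers, 0.25 to 0.30 for patterning activators, 0.11 to 0.19 for the CPC family and -0.39 to -0.36 for shoot epidermis. The leaf list had 1 gene past the threshold with normexp, no filter on dim probes and the replicate block, and 1 to 3 with an array left out.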
